A study of Mus musculus with 12 samples.

Results

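A set of 9 genes of the presynaptic release site was followed through 5hmC peak lists and RNA tables of the mouse hippocampus. They were chosen by name (Rims1, Rims2, Erc1, Erc2, Unc13a, Bsn, Pclo, Syt1 and Snap25), and all 9 were found among the 23953 genes of both RNA tables. Each has a body of at least 10 kb, as do 13954 genes in all. The stress group was 6 male C57BL/6 mice held in a tube for 30 min and then left for 1 h in a clean cage. The control group was 5 male C57BL/6 mice that were naive to restraint. Both groups received brief isoflurane anaesthesia before the tissue was taken. The age tag reads postnatal day 28, whereas the protocol gives 7 weeks. Whole hippocampus was punched from frozen brain. DNA was pooled from 2 mice per library, apart from 1 library made from 1 mouse, which gave 3 stress and 3 control libraries. RNA came from the same combinations of mice, and each group is represented by 1 pooled table. Punched hippocampus mixes cell types, so fewer cells of a type and less RNA per cell cannot be told apart.

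The active zone is the patch of presynaptic membrane where vesicles dock, are primed and fuse when calcium enters. RIM and ELKS proteins (Rims1, Rims2, Erc1, Erc2) form its scaffold together with the very large proteins Bassoon (Bsn) and Piccolo (Pclo), and Munc13-1 (Unc13a) primes vesicles for release. Synaptotagmin-1 (Syt1) senses calcium on the vesicle, and Snap25 is a membrane SNARE that drives fusion. 5-hydroxymethylcytosine (5hmC) is an oxidised form of methylcytosine that is abundant in neurons and tends to lie in the bodies of genes that neurons transcribe.

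Bsn alone of the 9 had a 5hmC peak within 1 kb of a start, in stress library 2 and control library 2. Of the 13954 genes, 16.2% had such a peak in any library. The starts differed widely in their content of CpG, the dinucleotide that carries most DNA methylation. RefSeq windows of 300 bases (250 before and 50 after the start, GRCm38.p6) were matched by gene name for 7 of the 9 genes, and not for Rims2 or Snap25. They were not matched to the starts used for the peaks, which are in the mm9 build. The windows of 3 genes are shown, 5′ to 3′ on the strand of the gene, with every CG in capitals. Bsn is shown for its nearby peaks, Erc1 for its RNA difference, the largest of the 9, and Syt1 as the window with the fewest CpG.
Bsn: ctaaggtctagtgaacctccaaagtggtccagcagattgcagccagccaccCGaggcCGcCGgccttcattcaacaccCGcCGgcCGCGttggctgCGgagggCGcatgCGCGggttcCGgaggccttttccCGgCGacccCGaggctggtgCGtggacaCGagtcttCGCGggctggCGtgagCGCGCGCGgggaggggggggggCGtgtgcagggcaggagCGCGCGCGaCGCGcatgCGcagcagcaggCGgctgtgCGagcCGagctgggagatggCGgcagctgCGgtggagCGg
Erc1: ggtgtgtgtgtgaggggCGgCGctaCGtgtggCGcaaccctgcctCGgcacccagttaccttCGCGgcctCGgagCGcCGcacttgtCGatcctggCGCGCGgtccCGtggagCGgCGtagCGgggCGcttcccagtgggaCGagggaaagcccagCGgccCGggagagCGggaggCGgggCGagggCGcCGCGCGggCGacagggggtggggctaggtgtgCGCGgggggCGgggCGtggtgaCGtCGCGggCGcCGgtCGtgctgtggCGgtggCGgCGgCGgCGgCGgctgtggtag
Syt1: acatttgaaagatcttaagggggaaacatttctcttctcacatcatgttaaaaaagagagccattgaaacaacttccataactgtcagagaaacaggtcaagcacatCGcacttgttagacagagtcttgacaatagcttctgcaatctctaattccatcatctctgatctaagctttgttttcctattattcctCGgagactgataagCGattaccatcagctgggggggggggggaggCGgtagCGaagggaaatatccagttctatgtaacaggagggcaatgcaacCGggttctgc
The Bsn window held 38 CpG, the Erc1 window 46 and this Syt1 window 6, and a second Syt1 window held 8. Those of Pclo, Erc2, Unc13a and Rims1 held 35, 31, 27 and 26. The median of all 32851 windows was 7, with quartiles of 3 and 20. The Bsn, Erc1, Pclo, Erc2, Unc13a and Rims1 windows therefore lay above the upper quartile, and both Syt1 windows lay near the median. The GC box GGGCGG, searched on both strands, was found in 6 of the 8 windows and in 35.7% of all windows. Other motifs searched were the cyclic AMP response element (CRE), a partial form of it and the E box. They were found in 0, 2 and 5 of the 8 windows, and in 1.79%, 20.8% and 72.3% of all windows. The GC box itself contains a CpG, and the windows compared were not matched for CpG content. Whether it was more frequent than in other windows of like CpG content was not tested.

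Peaks of the authors' lists were counted in a gene body when their midpoint lay in it. The 6 lists differed in length, from 15195 to 31654 peaks in stress libraries and from 16327 to 27916 in control libraries, and the lowest listed score was 50 in each. A site without a listed peak may therefore still hold 5hmC. All bodies of at least 10 kb held 0.898, 1.62 and 1.84 peaks per 100 kb in stress libraries 1, 2 and 3, and 1.02, 1.60 and 0.947 in control libraries 1, 2 and 3. The 9 bodies span 3224 kb and held 25, 41 and 45 peaks in stress and 35, 49 and 34 in control libraries.

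None of the 9 genes had a peak density whose stress and control libraries were apart. Without overlap, 2.59% of the 10027 genes tested were higher and 0.688% lower in stress. Exact two-sided permutation p-values over libraries ran from 0.4 to 1 for the 9 genes, and all were 1 after Benjamini-Hochberg adjustment over the genes tested. The smallest p that 3 against 3 libraries allow is 0.1, so none could pass 0.05. These p-values set the group difference against the spread between libraries of pooled mice. That spread includes the unequal length of the lists, since these densities were not scaled.

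**Figure D1:**
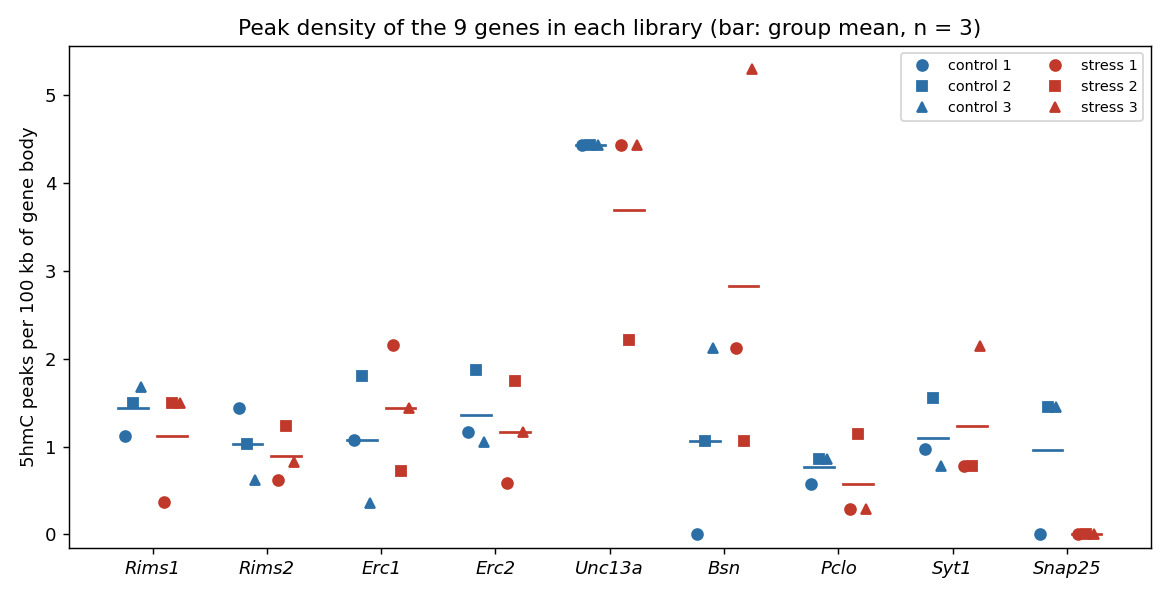
5hmC peaks per 100 kb of gene body (vertical axis) for the 9 genes, with 1 point for each library and a bar for each group mean (n = 3). Unc13a stands at 4.44 in 5 of the 6 libraries, and stress and control points overlap for every gene.

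Among the scaffolds, Rims1 (chr1:22278503-22812563, mm9 here and below) held 2, 8 and 8 peaks in stress libraries 1, 2 and 3 and 6, 8 and 9 in control libraries. The stress mean was 1.12 ± 0.649 peaks per 100 kb and the control mean 1.44 ± 0.286 (SD, n = 3 each). Only stress library 1 lay below all control libraries. Its paralog Rims2 (chr15:39029832-39515918) held 3, 6 and 4 peaks in stress and 7, 5 and 3 in control libraries, and the groups overlapped throughout.

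Erc1 (chr6:119520814-119798168) held 6, 2 and 4 peaks in stress and 3, 5 and 1 in control libraries. Erc2 (chr14:28435628-29291723), whose body is the longest of the 9 at 856 kb, held 5, 15 and 10 in stress and 10, 16 and 9 in control libraries. Per length the ELKS genes were close, at means of 1.26 and 1.27 peaks per 100 kb over the 6 libraries, with Erc1 higher in 2 libraries and Erc2 in 4.

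Bsn (chr9:107998353-108092714) held 2, 1 and 5 peaks in stress and 0, 1 and 2 in control libraries. That is 2.83 ± 2.21 against 1.06 ± 1.06 peaks per 100 kb (SD, n = 3 each), and the high mean came from stress library 3. Pclo (chr5:14514918-14863459), the other giant scaffold, held 1, 4 and 1 in stress and 2, 3 and 3 in control libraries. Bsn was denser than Pclo in 4 of the 6 libraries and sparser in 2.

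Unc13a (chr8:74150612-74195656), the shortest body at 45.0 kb, held 2, 1 and 2 peaks in stress and 2 in each control library. Syt1 (chr10:107934706-108448031) held 4, 4 and 11 in stress and 5, 8 and 4 in control libraries, and stress library 3 was above all others. Snap25 (chr2:136539186-136608164) held no peak in stress libraries and 0, 1 and 1 in control libraries. With 2 peaks in all, its groups meet at 0 and a difference was not detectable at this depth. Leaving out control library 1, Snap25 was lower in stress without overlap, and leaving out stress library 2, Pclo was. Groups separate more easily with fewer libraries, and the share of all genes called in these settings was not determined.

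By mean density over the 6 libraries the order was Unc13a (4.07 peaks per 100 kb), Bsn (1.94), Rims1 (1.28), Erc2 (1.27), Erc1 (1.26), Syt1 (1.17), Rims2 (0.960), Pclo (0.669) and Snap25 (0.483). No neighbours in this order had separate ranges over the libraries. All genes of at least 10 kb had a median of 1.18, with 28.1% of them holding no peak in any list.

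Unc13a and Pclo each lay on one side of all gene bodies in every library. Unc13a was above in 6 of 6 libraries, at 3.43 ± 1.45 times the density of all bodies (mean ratio, SD, n = 6), which held for 7.46% of the 13954 genes. Pclo was below in 6 of 6, at 0.533 ± 0.269 times, which held for 31.8%. With 0.5 peak added to each body before the log2, the exact two-sided sign-flip permutation test gave p = 0.03125 for Unc13a, the smallest 6 libraries can give, and 0.049 after Benjamini-Hochberg adjustment over the 13954 genes. The added 0.5 peak lifts short and empty bodies: 58.1% of genes were called higher and 5.67% lower in this way. With nothing added, an alternative chosen after seeing the data, Unc13a and Pclo both had an exact p of 0.03125 and an adjusted p of 0.0796, and neither passed. Over the other settings with all 6 libraries the adjusted p of Unc13a ran from 0.0388 to 0.0562, and with 1 library left out, where the smallest p is larger, from 0.0911 to 0.0955.

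Lists of unequal length were also put on a common scale. Divided by the density of all bodies in the same library, Rims1 and Erc2 were lower in stress without overlap, as were 4.2% of genes tested (4.47% were higher) and 9.66% of the 621 tested genes over 250 kb, a class to which both belong. Scaled Erc2 density was 0.651, 1.08 and 0.636 in stress and 1.15, 1.16 and 1.11 in control libraries. For Rims1 it was 0.417, 0.926 and 0.816 against 1.11, 0.933 and 1.78, so that stress library 2 and control library 2 nearly met. With every list cut to its top-scoring peaks at the length of the shortest, Erc2 and Pclo were lower in stress without overlap, as were 1.56% of genes tested (2.29% were higher) and 5.88% of those over 250 kb. Erc2 was in both sets.

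Summed over the 9 genes, 16.5, 14.7 and 14.2 of every 10000 listed peaks lay in their bodies in stress libraries, and 20.4, 17.6 and 20.8 in control libraries. All control libraries were above all stress libraries. The separation of this sum, given without a test, was lost without Rims1 or without Erc2. Without Rims1, stress libraries reached 15.1 and control libraries began at 14.7, and without Erc2 these were 13.2 and 11.8. Without any other single gene of the 9 the groups stayed apart. Rims1 and Erc2 are over 250 kb, where 9.66% of tested genes were lower in stress without overlap after scaling, against 4.2% of all tested. The sum was not set against other gene sets of like length.

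Peaks of the 6 lists that overlapped were joined into regions. The 9 bodies held 139 regions, of which 93 were found in 1 library, 10 in at least 4 and 1 in all 6. Regions of 1 library made up 66.9% of them, against 55.8% of the 41135 regions in all bodies. Introns held 108 (77.7%) and exons 31 (22.3%), against 66.3% and 29.7% of regions in all bodies. Regions of the 9 genes were placed by the gene's own exons and starts, those of all bodies by exons and starts of any gene. Median body length also differed, at 349 kb for the 9 genes and 31.9 kb for all genes of at least 10 kb. Erc2 held the most, with 47 regions of which 35 were in 1 library, and Snap25 and Unc13a held 2 each.

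**Figure D2:**
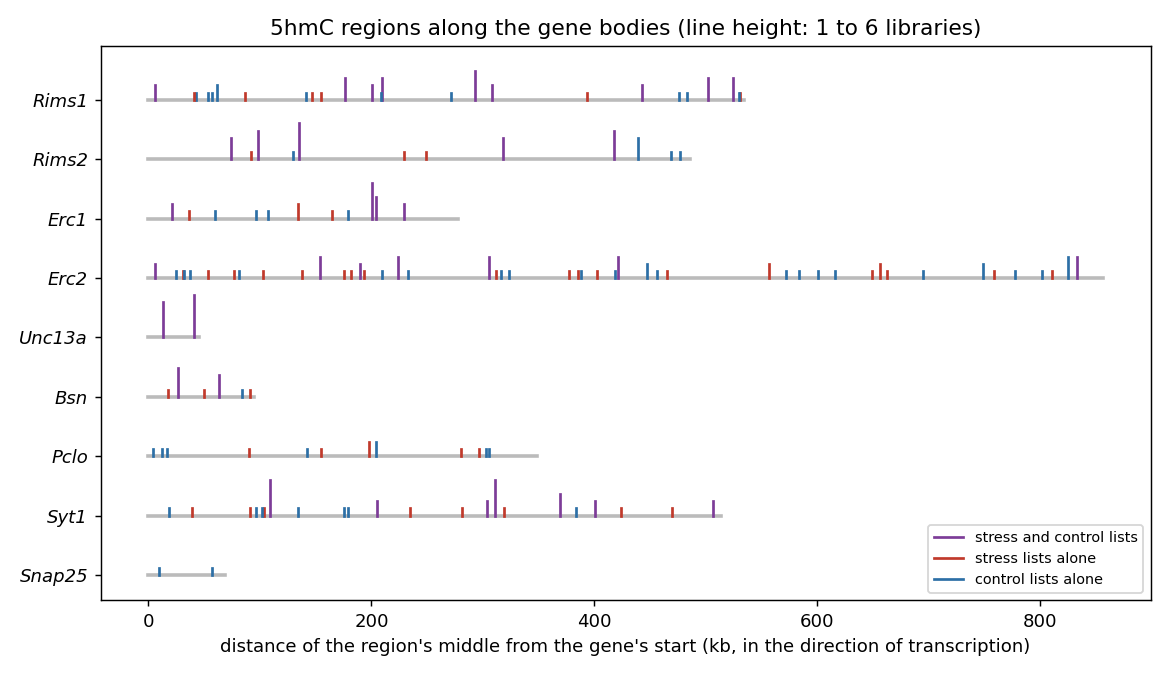
Regions along each gene body (grey line), placed by the distance of their middle from the start in kb. Line height gives the number of libraries from 1 to 6 and colour the groups with a peak there. The tallest line is the region of Unc13a found in all 6 libraries.

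**Figure D3:**
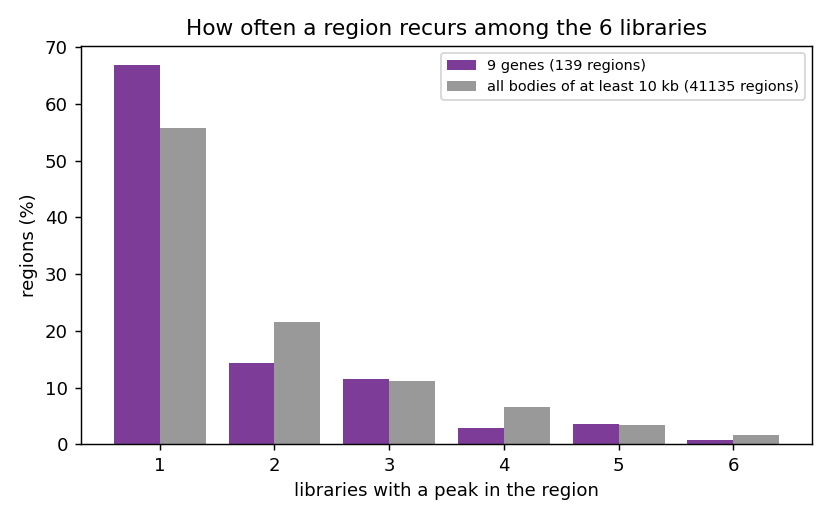
Percentage of regions (vertical axis) found in 1 to 6 libraries (horizontal axis), for the 139 regions of the 9 genes and the 41135 of all bodies of at least 10 kb. Of the regions in the 9 genes, 66.9% were found in 1 library, against 55.8% in all bodies.

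The region shared by all 6 libraries lay at chr8:74153753-74155266 over exons 40 and 41 of 42 of Unc13a, 41.1 kb from its start. A region of all 6 libraries was held by 4.84% of the 13954 genes. Its peaks had scores of 66.0, 138 and 125 in stress and 51.3, 64.5 and 63.8 in control libraries, which are the authors' own and rank peaks within a list. They placed the region among the top 37.7%, 1.95% and 3.84% of peaks in the stress lists and the top 92.1%, 48.5% and 44.5% in the control lists. The other Unc13a region, at chr8:74182258-74183662 over exon 10, was found in 5 libraries and missed stress library 2. Between them lay 27.0 kb without a listed peak. The region of all 6 libraries was lost when a library had to cover 50% of it or when lists were cut to equal length.

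Another 4 regions were found in 5 libraries. Syt1 held one at chr10:108135924-108137484 in intron 3, absent from control library 3, and one at chr10:108338419-108340195 over exon 2, absent from stress library 1. Rims2 held one at chr15:39163957-39165623 in intron 2, and Erc1 one at chr6:119596432-119598543 in intron 16. These recurrent regions were chosen for mention after their values were seen.

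No region of the 9 genes was present in all stress libraries and absent from all controls; 3.52% of genes, and 88 of the 679 genes over 250 kb, held such a stress-only region. The reverse was found in 2 genes, where 1.08% of all genes and 5.89% of the 679 genes over 250 kb held a control-only region. In Rims2 it lay at chr15:39468259-39469302 in intron 22, with scores of 67.1, 69.4 and 62.9 in control libraries 1, 2 and 3. In Erc2 it lay at chr14:29260223-29261417 in intron 15, with scores of 68.1, 76.9 and 61.8. These peaks ranked between the top 26.6% and 50.2% of their lists. Both genes were in the class over 250 kb. Stress-only regions appeared when stress library 1 (2, in Erc2 and Pclo), stress library 2 (1, in Erc1), stress library 3 (1, in Erc2) or control library 2 (1, in Bsn) was left out. Control-only regions numbered 4 without control library 1, where Pclo joined, and 2 to 3 without another library. With a library left out these definitions are easier to meet, and the share of all genes meeting them was not determined.

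Bsn was the only one of the 9 with a peak within 1 kb of a start, which 16.2% of genes had. The peak nearest its start (108092714) ran from 152 to 1232 bp upstream in stress library 2 and from 223 to 1168 bp upstream in control library 2, outside the gene body. In the other libraries the nearest peak lay between 17.0 and 63.2 kb away. The nearest peak to the start of Snap25 lay 180, 175 and 265 kb away in stress libraries 1, 2 and 3, and 175, 9.20 and 56.8 kb away in control libraries 1, 2 and 3. Control library 1 was thus as far as stress library 2.

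RNA was given as FPKM, a count of fragments corrected for transcript length and library size, summed over the transcripts of a gene. All 9 genes were read higher in the stress table when their transcripts were summed, and none by more than 1.5-fold. By its most abundant transcript alone, Rims2 was lower (7.91 FPKM in control and 7.74 in stress, log2 difference -0.03). Past 1.5-fold were 1.18% of the 11071 genes whose 2 tables averaged 1 FPKM or more in the higher and 0.894% in the lower direction. With 1 table per group there is no replicate and no test. The 9 genes had a median log2 difference of 0.14 on the log2(FPKM + 1) scale, where all genes had a median of 0.08 and 69.4% lay above 0. Relative to that median 7 of the 9 lay above it, and Unc13a and Syt1 below; by the most abundant transcript 6 lay above it.

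**Figure D4:**
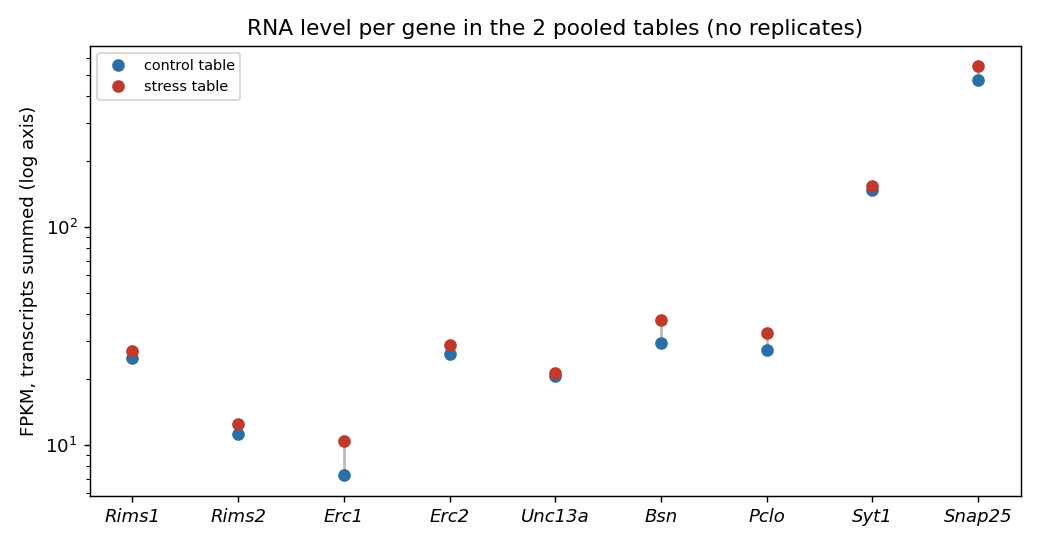
FPKM per gene on a log axis in the control and stress tables, joined by a line. Levels span from 7.25 FPKM for Erc1 to 472 for Snap25 in the control table, and every stress point is above its control point.

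Among the scaffolds, Erc1 had the largest difference, with 7.25 FPKM in control and 10.4 in stress (log2 difference 0.46, above 97.4% of genes). Bsn read 29.3 and 37.6 (0.35), and Pclo 27.3 and 32.7 (0.25). The RIM genes and Erc2 differed less: Rims1 read 25.1 and 27.1 (0.11), Rims2 11.3 and 12.5 (0.14), and Erc2 26.2 and 28.8 (0.13). These last lay within the middle of the genes, whose quartiles were -0.03 and 0.19.

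The priming factor Unc13a read 20.7 FPKM in control and 21.4 in stress, a log2 difference of 0.05. Syt1 read 148 and 154 (0.05), and turned below 0 like Unc13a when differences were centred on the median of all genes. Snap25, with rank 10 by level in the control table, read 472 and 547 (0.21).

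**Figure D5:**
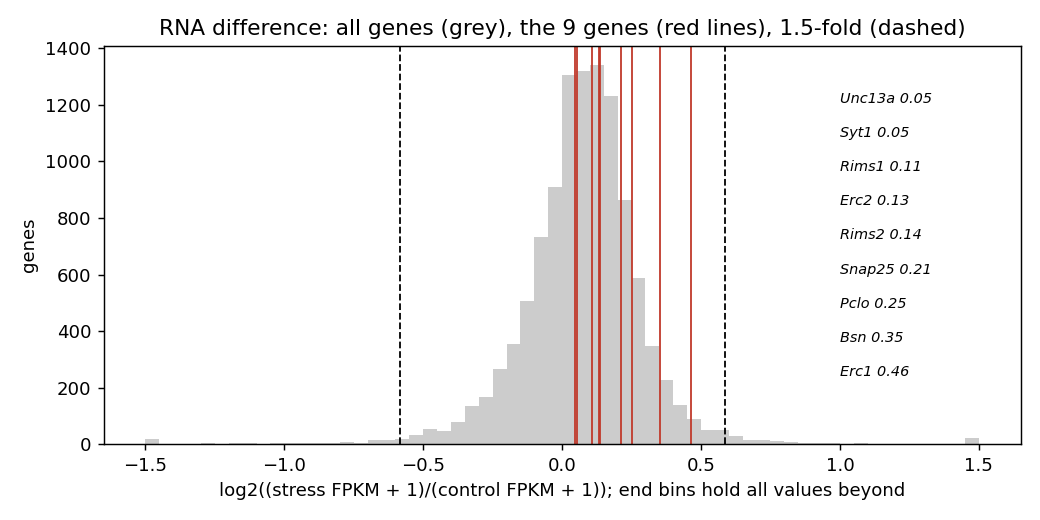
Number of genes (vertical axis) by log2 RNA difference of stress over control (horizontal axis), with the 9 genes as red lines and 1.5-fold as dashed lines. The 9 lines lie between 0.05 and 0.46, inside the dashed lines.

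Of the 9 genes, 6 had several transcripts, and Cufflinks divides shared reads between them by estimate. Of 22 transcripts, 18 averaged 1 FPKM or more, and 2 of these were past 1.5-fold, both higher, as were 6.07% of the 12857 transcripts (4.81% lower). Erc1 NM_178085, a short form of 6 exons that ends early in the gene, read 1.57 FPKM in control and 3.55 in stress, and its share of Erc1 went from 21.7% to 34.2%. Spanning the whole gene, NR_104484, whose accession is of the RefSeq non-coding class, read 4.39 and 5.81. The coding form NM_053204, of the same span, read 1.29 and 1.03. Syt1 NM_001252341, which alone holds an 80-base exon at chr10:108430894-108430973, read 3.06 and 6.44. The main Syt1 forms, NM_009306 and NM_001252342, read 77.1 and 79.1 and 68.3 and 68.7. They differ in one exon, of 123 bases in the first and 114 in the second.

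The 2 transcripts of Snap25 differ by alternative exons of 118 bases. NM_011428, with the exon at chr2:136595793-136595910, made up 95.0% of Snap25 in control and 94.7% in stress. The intronic peak of control library 3 (chr2:136595955-136596790) began just after this exon. Pclo NM_001110796, which ends before the last exons of NM_011995, made up 79.9% and 79.2%. Rims1 NM_001012624 read 4.48 FPKM in control and 3.76 in stress, lower where the main form of the gene was higher.

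Of 74 other presynaptic genes (scaffolds, SNAREs and their regulators, synaptotagmins, vesicle proteins and endocytosis), 65 lay above 0 and none passed 1.5-fold. Of all 11071 genes, 69.4% lay above 0, and 1.18% were past 1.5-fold higher and 0.894% lower. The median of the 74 was 0.14, against 0.08 for all genes, and 50 of them lay above the median of all genes. The largest difference was in the scaffold Rims4 (4.13 to 6.32 FPKM, 0.51), and Cplx3, a complexin that regulates SNAREs, was lowest (2.52 to 1.71, -0.38). Of 57 with a peak and a long enough body, 5 had separate peak densities. Ppfia1, Stxbp5, Syt3 and Dnm3 were higher and Ppfia2 lower in stress, where 2.59% and 0.688% of all genes tested were, each with an exact permutation p of 0.1 and an adjusted p of 1. Dnm3, which encodes a dynamin, held 11, 13 and 17 peaks in stress and 6, 10 and 7 in control libraries. Ppfia2, which encodes a liprin scaffold, held 0, 0 and 2 against 4, 3 and 3.

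Markers of other cells also differed between the RNA tables. The 6 choroid plexus markers that passed the filter were all past 1.5-fold lower in stress, as were 0.894% of the 11071 genes. The list's summed level went from 233 to 65.1 FPKM, most of it Ttr (217 to 59.5). Oligodendrocyte markers lay above the median of all genes in 1 of 8 (summed 1493 to 1312 FPKM, Mbp alone 799 to 686). Astrocyte markers did so in 7 of 7 (548 to 631), and neuronal markers in 6 of 10 (811 to 815). For microglia it was 5 of 7 (35.9 to 41.6), for inhibitory neurons 2 of 7 (291 to 289) and for thalamus 4 of 6 (29.8 to 38.4). Markers of the dentate, CA3 and CA1 fields, which identify the labelled tissue, were all present at 4.67 FPKM or more in the control table, and 5 of 8 lay above the median. Their part in the RNA differences of the 9 genes was not tested.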

How the data were processed

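5hmC was captured from hippocampal DNA by chemical labelling, and RNA came from the same pools, per the labels' protocols. The authors deposited 1 peak list per library with a score per peak. The submitters' processing notes name Bowtie 0.12.9 and the mm9 build. Peak caller settings: not given in the sources used here. For RNA, the authors deposited 1 RNA table per group, with FPKM per RefSeq transcript; the notes name TopHat 1.0.12, Cufflinks 2.1.1 and Cuffdiff 2.1.1. The table holds no counts, so the number of reads is unknown. Deposited coverage, summed and divided by summed FPKM, was 8.14 in control and 9.22 in stress. Summed FPKM was 141756 in control and 152171 in stress. Deposited intervals were not used, since 3 transcripts of the 9 genes lay outside theirs.

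Samples were grouped by title. Only peaks on the 19 autosomes, X and Y entered (1 to 4 per list were left out). Bodies, exons and starts came from the RNA tables. Densities were compared by exact permutation and sign-flip tests, adjusted by Benjamini-Hochberg over all genes of at least 10 kb (between groups, those with a peak). Peaks overlapping by 1 bp were joined into regions. RNA differences are log2((stress + 1)/(control + 1)), which understates changes of low genes. Python 3.11.15 with numpy 2.4.6, pandas 2.3.3 and scipy 1.17.1 was used. Peak counting and region joining were checked with peaks planted in the deposited lists, and the exact tests against scipy. The RNA and promoter steps had no such check. Every one of the 9 genes was named, with some of the extremes of other lists and any member past a threshold; members and lists were chosen with earlier results of these data known. Alternatives are given in the closing section.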

Additional observations from a re-analysis of the deposited data

How the results depend on the processing

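The count of genes with separate stress and control densities was 0 by midpoint, overlap, coverage, extended bodies and the higher-scoring 50% of each list, and 2 with equal numbers of top-scoring peaks and 2 after scaling to all bodies. Leaving out 1 library gave 0 to 1 (Pclo lower without stress library 2, Snap25 lower without control library 1). The share of all genes called with a library left out was not determined. With the replicate number as a block, 0 genes had all 3 pairs one way (exact sign-flip p of 0.5 to 1). Same-numbered libraries did not deviate together (correlations of 0.04, 0.01 and 0.00), so the numbers were not taken as pairs.

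The single gene past an adjusted p of 0.05 against all bodies, Unc13a, became 0 by coverage, against genes at 10 to 100 FPKM, and with no 0.5 peak added. It was 0 to 0 when 1 library was left out, where 5 libraries cannot reach the p needed. The main log2 densities of Rims1, Erc1 and Snap25 were -0.0018, 0.029 and -0.28. With equal peak numbers they turned to 0.16, -0.15 and 0.24, and with the higher-scoring 50% to 0.11, -0.16 and 0.73. With equal peak numbers Snap25 held 0, 0 and 0 peaks in stress and 0, 1 and 1 in control libraries. Where a library held no Snap25 peak, the value was that of the added 0.5 peak alone. With nothing added, the mean ratio of Snap25 to all bodies was 0.41 in the full lists. Erc1 turned to -0.26 by coverage and -0.17 against genes at 10 to 100 FPKM. Leaving out 1 library gave -0.18 to 0.19 for Rims1, -0.24 to 0.20 for Erc1, -0.082 to 0.089 for Erc2 and -0.18 to 0.053 for Syt1. The cause of the other turns was not tested.

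The region of every library became 0 with 50% coverage and 0 with equal peak numbers. Leaving out 1 library gave 1 to 2 such regions, 0 to 2 stress-only and 2 to 4 control-only regions, without a share over all genes for comparison. The RNA median of the 9 genes was 0.15 with a pseudocount of 0.1, 0.053 after centring and 0.15 for the main transcript, by which Rims2 turned to -0.027. Lists without read counts limit what a missing peak can show.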
